A study of Homo sapiens with 6 samples.

Results

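The 41 genes described here copy the genome during S phase or prepare the cell to do so. They were chosen by name, as genes of DNA replication and S phase, from a table of 35793 gene symbols, and all 41 had a row. Earlier results of these data were known when they were chosen. RNA was measured in cardiomyocytes made from WTC11, an established human induced pluripotent stem cell line. The wild type was unedited WTC11 and the knockout a CRISPR/Cas9 derivative in which both copies of STK25, a serine/threonine kinase, had been disrupted. No treatment was given, and each genotype had 3 biological replicates, all taken on day 15 of differentiation and all kept in the same cardiomyocyte medium. The knockout was 1 edited line, so the edit and any other difference between the lines cannot be told apart. Each value came from a whole culture, and fewer cycling cells and less RNA per cycling cell cannot be told apart either.

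A replication origin is first marked by the origin recognition complex (ORC), which with CDC6 and CDT1 loads the ring of MCM2 to MCM7 onto DNA in G1. CDC45 and the GINS complex then turn that ring into the moving helicase, and primase and the polymerases copy both strands behind the sliding clamp PCNA. Many of these genes are switched on together at the G1/S border by E2F transcription factors, which the retinoblastoma family holds back in resting cells. Cardiomyocytes made from stem cells still divide in culture and leave the cell cycle slowly as they mature.

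The promoters of these genes are shown first, because an E2F octamer was a sequence feature that 21 of them shared and that the choice of genes had not used. RefSeq promoter windows on GRCh38.p14, each 250 bases before to 50 bases after a transcript start, were found for 37 of the 41 genes. The E2F octamers searched, on both strands, were TTTCCCGC, TTTGGCGC, TTTCGCGC and TTTGCCGC. The octamers TTTGGCGC and TTTCGCGC can overlap each other on opposite strands. At least 1 of the 4 was present in 21 of the 37 genes (56.8%), against 728 of the 11582 tested genes with a window (6.29%). TTTCCCGC alone was in 11 of 37 (29.7%), against 3.07% of all, and TTTGGCGC in 9 of 37 (24.3%), against 1.31%. The CCAAT box was in 21 of 37 (56.8%), against 42.9%, and TTTGAA, the core of an element of genes of late cell cycle, in 2 of 37 (5.41%), against 14.3%. A match describes the letters and does not show that a factor binds there.

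PCNA held 1 E2F octamer together with 3 CCAAT boxes in its promoter, and 159 bases of it, chr20:5126627-5126785 on the minus strand, are printed with the E2F octamer and the CCAAT boxes (on either strand) in capitals.
PCNA: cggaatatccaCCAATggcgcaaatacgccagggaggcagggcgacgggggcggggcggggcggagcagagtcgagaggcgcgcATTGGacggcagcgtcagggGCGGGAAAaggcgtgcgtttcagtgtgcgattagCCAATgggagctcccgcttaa

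The 3 genes that passed the test between genotypes, TYMS, PCNA and GINS2, each carried TTTCCCGC read on the opposite strand, as GCGGGAAA, 39, 59 and 31 bases before the RefSeq start. The same octamer also stood in genes that did not pass, such as RFC3, DUT, CDT1 and LIG1, so stretches of both kinds are set side by side with the octamer in capitals. MCM6 and E2F2 show the variant TTTGGCGC, which in MCM6 overlaps TTTCGCGC on the other strand. RefSeq starts can differ from those of GENCODE 29. In GENCODE 29, exons covered 29 of the 30 bases printed for TYMS and all 30 for GINS2, CDT1, RFC3, DUT and LIG1. They covered 0 of those for PCNA, MCM6 and E2F2.
TYMS, chr18:657603-657632, plus strand: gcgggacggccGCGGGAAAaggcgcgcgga
PCNA, chr20:5126663-5126692, minus strand: cagcgtcagggGCGGGAAAaggcgtgcgtt
GINS2, chr16:85688967-85688996, minus strand: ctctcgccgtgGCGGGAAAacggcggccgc
CDT1, chr16:88803743-88803772, plus strand: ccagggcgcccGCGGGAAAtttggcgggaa
RFC3, chr13:33818083-33818112, plus strand: atttggagctcGCGGGAAAacttgtctctg
DUT, chr15:48332144-48332173, plus strand: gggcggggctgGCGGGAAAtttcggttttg
LIG1, chr19:48170440-48170469, minus strand: acttcacccctTTTCCCGCcctcctcccat
MCM6, chr2:135876515-135876544, minus strand: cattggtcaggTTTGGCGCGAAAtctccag
E2F2, chr1:23531257-23531286, minus strand: gcggcacgacgTTTGGCGCtaaaaaaaaaa

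The libraries held from 22443904 to 53224112 reads assigned to genes. STK25 itself, the targeted gene, was at 8874, 6774 and 8710 normalized counts in the wild type and 3906, 3434 and 3820 in the knockout. It fell from 8119 ± 1168 to 3720 ± 251 normalized counts (SD, n = 3 each), with a log2 fold change of -1.12 (SE 0.19, limma adjusted p = 0.00903), and its adjusted p was 0.0609 without wild-type replicate 1. The 9 cardiomyocyte markers summed to between 1243891 and 1552435 normalized counts in the wild type and between 1799223 and 3292246 in the knockout, so the labelled cell type was present in each library. Of these 9, 1 fell and 0 rose with limma. NKX2-5, a cardiac transcription factor, fell from 20429, 23430 and 19414 normalized counts to 6718, 5869 and 6745 (log2 fold change -1.71, SE 0.18, limma adjusted p = 0.00135). The sum was carried largely by MYL7, an atrial myosin light chain, at 442989, 739950 and 441630 against 2324410, 860614 and 1258031 (1.37, SE 0.49, limma adjusted p = 0.114), while MYH6, a cardiac myosin heavy chain, had a knockout mean of 43.6% of the wild type (-1.14, SE 0.31, limma adjusted p = 0.0531). MYH7, another cardiac myosin heavy chain, was higher in each knockout library than in each wild-type library (1.42, SE 0.41, limma adjusted p = 0.0639). So were ACTN2 (1.16, SE 0.38, limma adjusted p = 0.0888) and TTN (0.66, SE 0.24, limma adjusted p = 0.124). TNNT2, TNNI1 and RYR2 overlapped between genotypes. The 4 smooth muscle markers summed to 77993 to 87796 in the wild type and 486822 to 536050 in the knockout, and all 4 rose. The 6 pluripotency markers summed to 916 to 1478 and 2802 to 4378, with 1 of them, TDGF1, higher by the test, and the 5 epicardial markers to 103 to 219 and 912 to 1091, with 2 higher. The 8 fibroblast and stromal markers (12924 to 26543 and 7871 to 16397) held 1 that fell and 3 that rose, the 6 neural markers (4540 to 7867 and 7080 to 16898) 3 that rose. The 6 endoderm markers (1652 to 3003 and 1482 to 1632) held 1 of each, and none of the 5 endothelial markers (139 to 465 and 367 to 545) passed with limma. The endothelial CDH5 and the endodermal FOXA2 had at most 3 reads in every library. The part of these shifts in the replication genes' values was not tested.

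Of the 41 genes, 39 had a log2 fold change below 0 in the knockout, and 2, ORC1 and RRM2, had one above 0. The median of the 41 was -0.51, against 0.0052 over all 15536 genes tested, and 49.6% of all genes were below 0. With limma and an adjusted p under 0.05, 3 of 41 genes (7.32%) fell, namely TYMS, PCNA and GINS2, and the share of all genes called lower was 6.79%, so the share called was near the background. None of the 41 was called higher with limma, against 5.97% of all genes, and at an unadjusted p under 0.05 none was higher either. On the recovered reads, edgeR and DESeq2 also called 0 of the 41 higher, against 866 and 1554 of all 15536 genes. At an unadjusted p under 0.05, 12 of 41 (29.3%) were lower, against 14.3% of all genes. In 13 of 41 (31.7%) all 3 knockout libraries lay below all 3 wild-type libraries, against 17.2% of all genes, and in 0 of 41 they lay above, against 16.2%. All 41 passed the filter of a mean of at least 10 normalized counts.

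**Figure D1:**
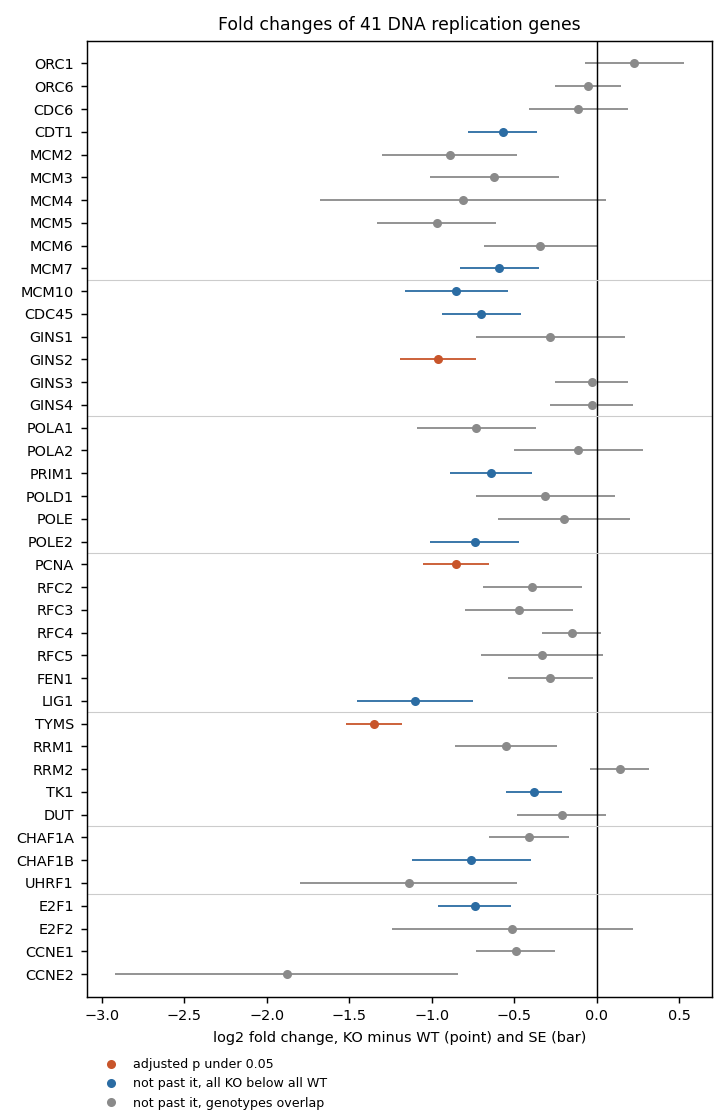
Log2 fold change of each of the 41 replication genes, knockout minus wild type (points, x axis), with the SE of limma's fit (bars, 3 libraries per genotype); genes are in the order of their roles, from origin licensing at the top to S-phase entry at the bottom. The 3 genes past the threshold, TYMS, PCNA and GINS2, lie between -1.35 and -0.85, and only ORC1 and RRM2 lie above 0.

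The genes of nucleotide supply held the gene with the smallest p of the 41, TYMS. TYMS (ENSG00000176890.15; chromosome 18, 657604 to 673578, plus strand, GENCODE 29 on GRCh38) encodes thymidylate synthase, which makes the thymine nucleotide that DNA needs. It had 9992, 11148 and 9138 normalized counts in wild-type replicates 1, 2 and 3 and 3746, 4084 and 4049 in the knockout. The groups did not overlap, and the knockout mean was 39.2% of the wild-type mean. TYMS fell by 1.35 on the log2 scale (SE 0.17, limma adjusted p = 0.0029), the exact two-sided permutation test of 3 against 3 values gave p = 0.1, the smallest this design allows, and the adjusted p was below 0.05 in each of the 20 alternatives. ENOSF1 lies on the opposite strand and overlaps TYMS by 3255 bases, and the counting is not stated to use strand, so reads of one could have been counted for the other. ENOSF1 also fell, by 1.28 (SE 0.29, limma adjusted p = 0.0263), from 1358, 839 and 1213 normalized counts to 336, 525 and 543.

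The other 4 genes of nucleotide supply did not pass. TK1, thymidine kinase of the salvage route, had 4202, 4524 and 3940 normalized counts in the wild type and 3290, 3088 and 3340 in the knockout. These did not overlap, with a log2 fold change of -0.38 (SE 0.17, limma adjusted p = 0.189). Ribonucleotide reductase turns ribonucleotides into the building blocks of DNA, and its subunits did not take the same values. The large subunit RRM1 was at 4708, 3239 and 4307 in the wild type and 1769, 3765 and 3152 in the knockout (log2 fold change -0.55, SE 0.31). The small subunit RRM2, an S-phase gene, was at 2483, 2338 and 2552 against 2336, 2782 and 3021 (log2 fold change 0.14, SE 0.18). DUT, the dUTPase that keeps uracil out of DNA, was at 5703, 9072 and 5508 against 7284, 4621 and 5417, an overlap (log2 fold change -0.21, SE 0.27).

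PCNA, the sliding clamp that holds the polymerases on DNA, was the member of the clamp and clamp loader group that fell. PCNA (ENSG00000132646.10; chromosome 20, 5114953 to 5126626, minus strand) had 3485, 4600 and 3359 normalized counts in the wild type and 2184, 1920 and 2172 in the knockout. The groups did not overlap, and the knockout mean was 54.8% of the wild type. PCNA fell by 0.85 on the log2 scale (SE 0.20, limma adjusted p = 0.0284). Its call was lost in most fits with 1 library left out, which also rest on fewer libraries. The adjusted p was 0.0957, 0.0584, 0.0707, 0.0927 and 0.0949 without wild-type replicates 1, 2 and 3 and knockout replicates 2 and 3 in turn, and 0.0343 without knockout replicate 1. The log2 fold change of PCNA stayed between -1.14 and -0.71 in all 20 alternatives. Processed pseudogenes of PCNA and of DUT exist, and reads of near-identical copies cannot be reassigned from gene totals.

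The clamp loader puts PCNA onto DNA, and 4 of its 5 subunits were among the 41 genes. The log2 fold changes were -0.39 for RFC2, -0.47 for RFC3, -0.15 for RFC4 and -0.33 for RFC5, and their SEs ran from 0.18 to 0.37. RFC4 was among the steadiest, at 2429, 2440 and 2339 normalized counts in the wild type and 2060, 1946 and 2539 in the knockout. FEN1, the nuclease that trims Okazaki fragments, was at 3133, 2670 and 3786 against 1863, 2840 and 3344, an overlap. LIG1, the ligase that joins the trimmed fragments, was at 1495, 883 and 2284 in the wild type and 571, 729 and 737 in the knockout. Its groups did not overlap, yet wild-type replicate 2 stood close to the knockout, and the log2 fold change of -1.10 (SE 0.35) had a limma adjusted p of 0.081. When wild-type replicate 2 was left out it was -1.45 with an adjusted p of 0.0228.

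**Figure D2:**
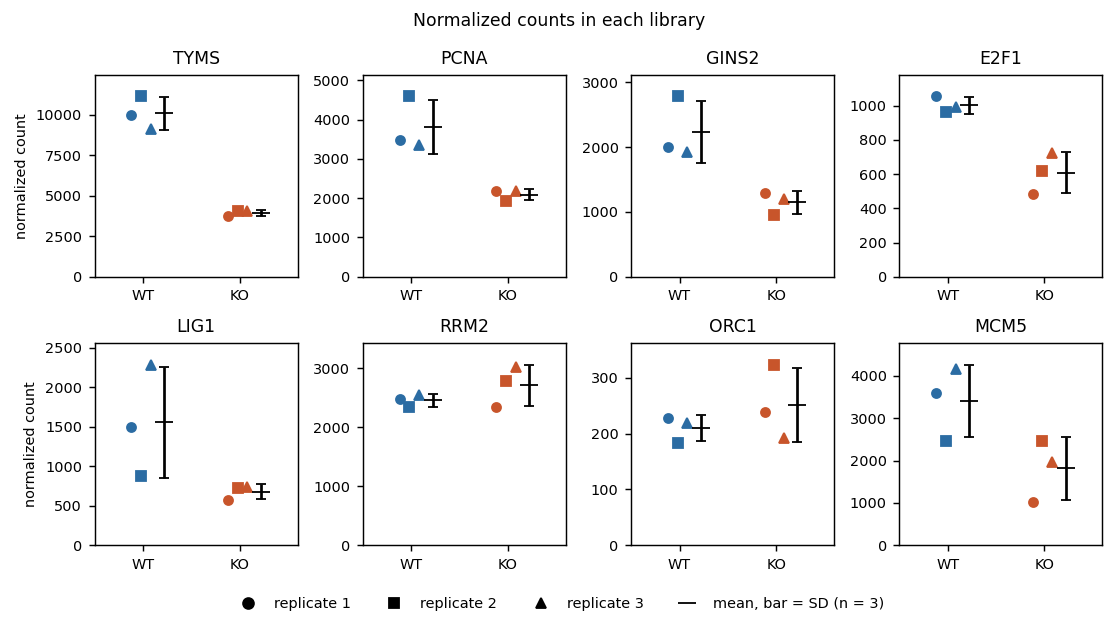
Normalized counts (y axis, from 0) of 8 replication genes in each wild-type (WT) and knockout (KO) library, with the mean and SD of 3 libraries beside the points. TYMS, PCNA, GINS2, E2F1 and LIG1 show no overlap between genotypes, RRM2 and ORC1 overlap, and for MCM5 knockout replicate 2 and wild-type replicate 2 are both at 2465.

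GINS2 was the helicase gene that fell. It encodes a subunit of the 4-part GINS complex that joins CDC45 and the MCM ring. GINS2 (ENSG00000131153.8; chromosome 16, 85676198 to 85690073, minus strand) had 1995, 2784 and 1926 normalized counts in the wild type and 1294, 946 and 1197 in the knockout. The groups did not overlap, and the knockout mean was 51.3% of the wild type. GINS2 fell by 0.96 on the log2 scale (SE 0.23, limma adjusted p = 0.0331). The adjusted p was 0.0992, 0.0724, 0.0763, 0.102 and 0.0989 without wild-type replicates 1, 2 and 3 and knockout replicates 2 and 3 in turn, and 0.031 without knockout replicate 1.

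The other 3 GINS subunits had values unlike those of GINS2, although the difference between subunits was not tested. GINS3 was at 400, 430 and 389 normalized counts in the wild type and 397, 386 and 414 in the knockout (log2 fold change -0.03, SE 0.22). GINS4 was at 275, 416 and 333 against 319, 348 and 325 (-0.03, SE 0.25). The genotypes overlapped in both genes. GINS1 had the widest spread of the complex, at 622, 419 and 1224 against 371, 834 and 579 (-0.28, SE 0.45).

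CDC45, the partner of GINS in the active helicase, was at 861, 866 and 968 in the wild type and 426, 614 and 649 in the knockout. MCM10, which helps to start unwinding, was at 950, 609 and 843 against 300, 546 and 504. Neither gene's groups overlapped, and neither passed: the log2 fold changes were -0.70 (SE 0.24, limma adjusted p = 0.1) and -0.85 (SE 0.31, limma adjusted p = 0.117). In the group of helicase activation, 1 of 6 genes fell and the median was -0.49.

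Of the 10 genes of origin licensing none passed the test with limma, while 3 were lower at an unadjusted p under 0.05 (CDT1, MCM5 and MCM7), and the median was -0.58. CDT1, which with CDC6 loads the MCM ring, was at 657, 700 and 606 normalized counts in the wild type and 480, 439 and 400 in the knockout. The groups did not overlap and the spread within each was small, with a log2 fold change of -0.57 (SE 0.21, limma adjusted p = 0.123). CDC6 was at 1877, 1328 and 1511 against 927, 1822 and 1758, so that 2 of 3 knockout libraries lay within the wild-type range (-0.11, SE 0.30). ORC6, a small ORC subunit, was at 1823, 2509 and 1815 against 2063, 1978 and 1844 (-0.05, SE 0.20). ORC1, the largest ORC subunit, was at 228, 183 and 219 against 239, 323 and 192 (0.23, SE 0.30).

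The 6 subunits of the MCM ring all had fold changes below 0, and all were lowest of their genotype in wild-type replicate 2 and in knockout replicate 1. MCM5 was at 3590, 2465 and 4148 normalized counts in the wild type and 1016, 2465 and 1966 in the knockout (log2 fold change -0.97, SE 0.36, limma adjusted p = 0.125). MCM2 was at 3250, 1488 and 3690 against 932, 1979 and 1532 (-0.89, SE 0.41). MCM7 was the subunit whose genotypes did not overlap, at 6705, 5509 and 8252 against 3450, 5119 and 5107 (-0.59, SE 0.24, limma adjusted p = 0.165). MCM3 was at 7179, 4505 and 8178 against 2353, 5947 and 5235 (-0.62, SE 0.39), and MCM6 at 2470, 1348 and 2407 against 1047, 1887 and 1985 (-0.34, SE 0.34). For MCM2, MCM3, MCM5 and MCM6 the lowest wild-type library stood at or below the highest knockout library.

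MCM4 stood apart from its partners in level. Per kilobase of the longest coding transcript, the wild-type means were 2212 normalized counts for MCM7, 2064 for MCM3, 962 for MCM5, 776 for MCM2 and 555 for MCM6, but 23.1 for MCM4. Gene totals do not show whether reads of MCM4 were counted elsewhere, so its level and its fold change are uncertain. MCM4 had 98.2, 19.8 and 172 normalized counts in the wild type and 16.5, 65.8 and 56 in the knockout (log2 fold change -0.81, SE 0.87), and as few as 13 reads in a library.

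The 6 genes of primase and the polymerases had a median log2 fold change of -0.47, and none passed with limma, with 2 lower at an unadjusted p under 0.05 (PRIM1 and POLE2). PRIM1, the catalytic primase subunit that lays down RNA primers, was at 646, 733 and 497 normalized counts in the wild type and 446, 340 and 411 in the knockout (-0.64, SE 0.25, limma adjusted p = 0.143). POLE2, the second subunit of the leading-strand polymerase, was at 585, 446 and 424 against 295, 342 and 234 (-0.74, SE 0.27, limma adjusted p = 0.114). The genotypes did not overlap in either gene. The 4 large or regulatory polymerase genes did overlap: POLA1 had -0.73 (SE 0.36), POLD1 -0.31 (SE 0.42), POLE -0.20 (SE 0.40) and POLA2 -0.11 (SE 0.39). POLD1, the catalytic subunit of the lagging-strand polymerase, was at 1788, 1095 and 2675 normalized counts against 816, 1881 and 1788.

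The 3 genes that copy chromatin had a median log2 fold change of -0.76, and none passed with limma (0 at an unadjusted p under 0.05). CHAF1B, a subunit of the histone chaperone CAF-1, was at 350, 443 and 364 normalized counts in the wild type and 137, 320 and 265 in the knockout, without overlap (-0.76, SE 0.36, limma adjusted p = 0.219). Its partner CHAF1A was at 1364, 894 and 1473 against 892, 985 and 873 (-0.41, SE 0.24). UHRF1, which guides the maintenance DNA methyltransferase to new strands, was at 1266, 445 and 1307 against 151, 614 and 737 (-1.14, SE 0.66). Wild-type replicate 2 lay below 2 of the 3 knockout libraries for UHRF1.

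None of the 4 genes of S-phase entry passed with limma, and 1, E2F1, was lower at an unadjusted p under 0.05. E2F1, an activator of the replication genes, was at 1056, 961 and 990 normalized counts in the wild type and 482, 620 and 723 in the knockout, without overlap. Its log2 fold change was -0.74 (SE 0.22, limma adjusted p = 0.0719). E2F2, a second activator, was low in all libraries, at 42.3, 110 and 54.9 against 127, 34.6 and 19.6 (-0.51, SE 0.73). Cyclin E turns on CDK2 at the start of S phase. CCNE1 was at 970, 937 and 743 against 503, 629 and 774 (-0.49, SE 0.24), where 1 knockout library reached into the wild-type range. CCNE2 was at 248, 89.1 and 192 against 6.36, 81.4 and 142 (-1.88, SE 1.04), the widest error of the 41, with 5 reads in knockout replicate 1.

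**Figure D3:**
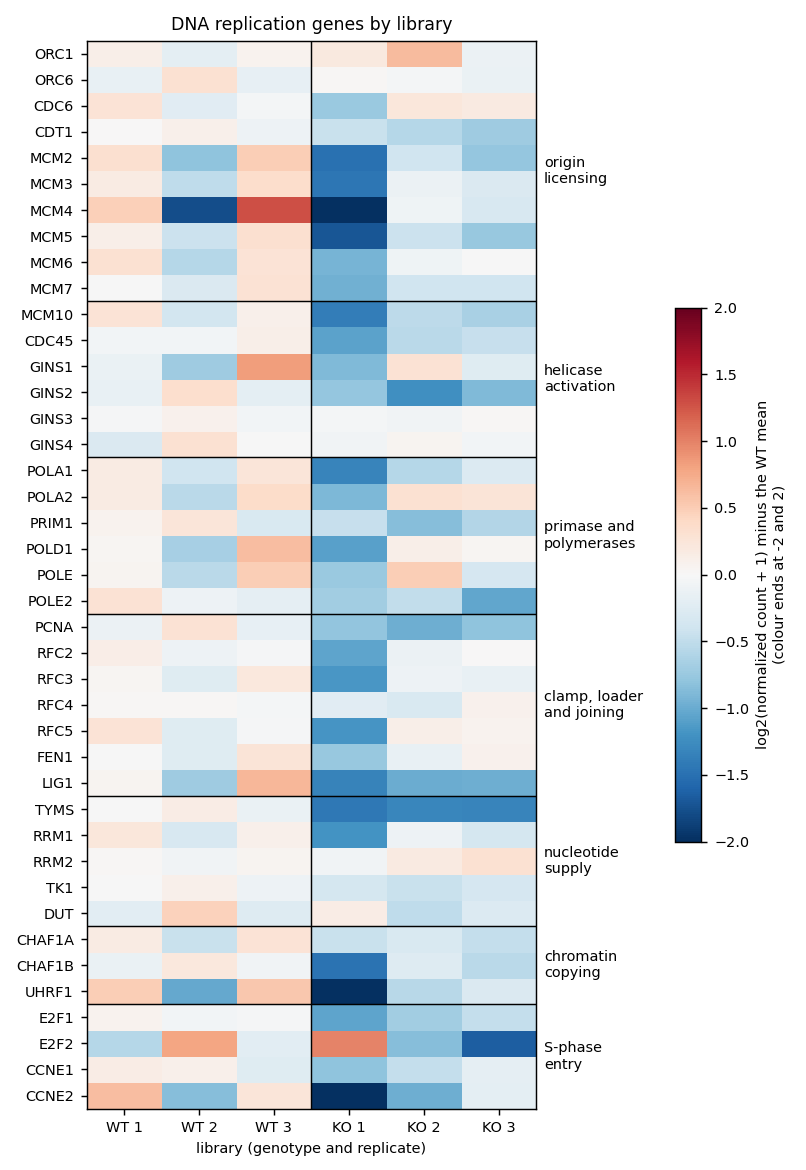
Log2(normalized count + 1) of the 41 replication genes (rows, grouped by role) in each library (columns), minus the mean of the 3 wild-type (WT) libraries; blue is lower and red higher, and the colour scale ends at -2 and 2. Knockout (KO) replicate 1 is the bluest column, with a median of -0.90, wild-type replicate 2 is blue over most of the MCM ring, and TYMS is blue in all 3 knockout libraries.

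The libraries of 1 genotype differed from each other over these genes. Relative to the wild-type mean, the median of the 41 was 0.05, -0.23 and 0.07 in wild-type replicates 1, 2 and 3 and -0.90, -0.30 and -0.29 in knockout replicates 1, 2 and 3, while the median over all genes lay between -0.01 and 0.02 in every library. Summed, the 41 genes took 25.2, 19.8 and 26.2 of every 10000 reads assigned to genes in the wild type and 9.5, 16.2 and 15.2 in the knockout. Each knockout library was below each wild-type library on both measures, and knockout replicate 1 was the lowest. Wild-type replicate 2 was the lowest of its genotype for 25 of the 41 genes and knockout replicate 1 for 28, and both held at once for 23 of 41 (56.1%), against 30.7% of all genes tested.

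Transcript length moved with this pattern. Wild-type replicate 2 was higher than the other wild-type libraries by a median of 0.12 over the 15 genes with a longest coding transcript under 2500 bases and lower by a median log2 difference of -0.63 over the others. The same medians for knockout replicate 1 were -0.11 and -0.89. Over the 41 genes, which share the library, Spearman's rho between length and this difference was -0.495 for wild-type replicate 2 and -0.41 for knockout replicate 1, and over all tested genes with a length -0.39 and -0.235. The 23 genes that were lowest in both libraries had a median length of 3534 bases, and the 7 that were highest in both, among them PCNA, GINS2 and DUT, one of 2147 bases. The labels give no batch or RNA quality. With each library's trend over length removed, 5 of the 41 genes fell (MCM10, GINS2, PCNA, LIG1 and TYMS), against 8.43% of all genes. With both libraries left out, so that each genotype had 2, 12 of the 41 fell, TYMS, PCNA, GINS2, LIG1, MCM2, MCM3, MCM5, MCM7, MCM10, UHRF1, CHAF1A and E2F1, but 14.0% of all genes did too, and the median was -0.39. Both alternatives were chosen after the data were seen.

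**Figure D4:**
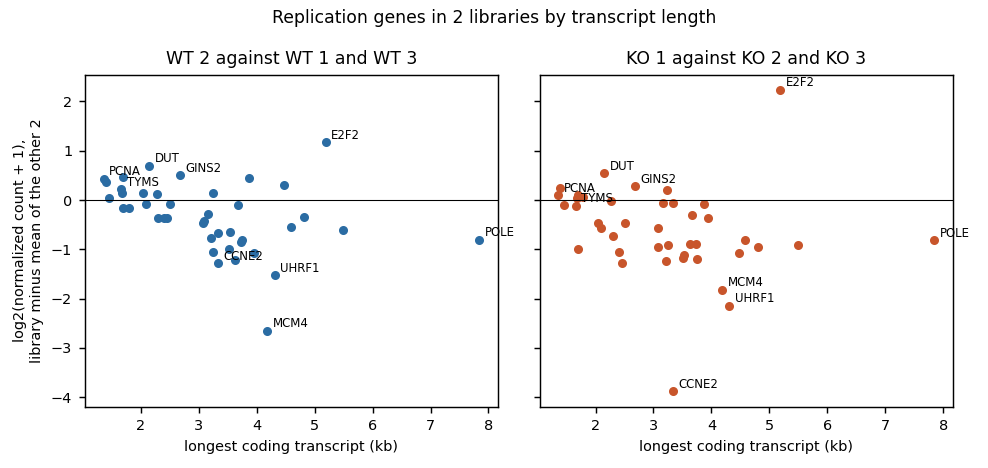
Difference of each replication gene in 1 library from the mean of the other 2 of its genotype, as log2(normalized count + 1) (y axis), against the length of its longest coding transcript in kilobases (x axis); wild-type (WT) replicate 2 is on the left and knockout (KO) replicate 1 on the right. The short transcripts PCNA and DUT lie above 0 in both panels and most of the long ones below 0, with E2F2, CDT1 and GINS2 as exceptions in both.

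Of 44 further replication genes, 3 fell (6.82%) and 0 rose with limma, against 6.79% and 5.97% of all genes. At an unadjusted p under 0.05, 9 were lower and 1 higher (RPA2), and the median was -0.35, with 33 below 0. Of the accessory subunits of DNA polymerase delta, POLD3 and POLD2 fell and POLD4 did not pass. POLD3 was at 958, 1331 and 948 normalized counts in the wild type and 533, 544 and 643 in the knockout (log2 fold change -0.90, SE 0.23, limma adjusted p = 0.04). POLD2 was at 6746, 7382 and 7495 against 4230, 4744 and 4782 (-0.65, SE 0.17, limma adjusted p = 0.043). The genotypes did not overlap in either gene. POLD4 was at 1166, 2003 and 1419 against 3563, 1576 and 2085, an overlap (0.61, SE 0.34, limma adjusted p = 0.302). With 1 library left out, 0 of the 44 passed with limma in 4 cases: wild-type replicate 1 (3 at an unadjusted p under 0.05), wild-type replicate 3 (5), knockout replicate 2 (9) and knockout replicate 3 (7). Leaving out knockout replicate 1 brought the number past the threshold to 1. The number of all genes called also changed when a library was left out, as given in the closing section.

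The genes that control entry into S phase had calls in both directions, at shares near those of all genes. Of 31 such genes 29 were tested, 3 fell (10.3%) and 2 rose (6.90%), against 6.79% and 5.97% of all genes, and the median was -0.11. CDKN1A, which encodes p21, an inhibitor of cyclin-dependent kinases and of PCNA, was at 21874, 21721 and 24553 normalized counts in the wild type and 985, 1403 and 1302 in the knockout. Its knockout mean was 5.42% of the wild type, and it fell by 4.22 on the log2 scale (SE 0.20, limma adjusted p = 6.44e-05). TFDP1, the partner with which E2F proteins bind DNA, fell from 4747, 3134 and 5254 to 962, 1884 and 1702 (-1.55, SE 0.32, limma adjusted p = 0.0183), while its relative TFDP2 rose from 1732, 1928 and 1532 to 4206, 2766 and 3516 (1.00, SE 0.22, limma adjusted p = 0.0227). Cyclin D2, CCND2, fell from 8676, 6196 and 11723 to 2780, 3972 and 3215 (-1.38, SE 0.27, limma adjusted p = 0.0158). The CDK4 and CDK6 inhibitor CDKN2D rose from 296, 487 and 307 to 920, 742 and 1060 (1.34, SE 0.28, limma adjusted p = 0.0196). Leaving out replicate 1 or 3 of the wild type, or replicate 3 of the knockout, brought the number past the threshold to 1. In such fits the number of all genes called changed too.

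The 33 genes of G2 and mitosis, which act after the genome is copied, all had fold changes below 0, the median was -0.78, and 9 (27.3%) fell, against 7.32% of the 41 replication genes and 6.79% of all genes. The median of the list relative to the wild-type mean was -1.08 in knockout replicate 1, -0.68 in replicate 2 and -0.66 in replicate 3, but MKI67, CENPA and CENPF were highest of the knockout in replicate 1. The lists were chosen with earlier results of these data known, and the difference between them was not tested. The proliferation marker MKI67 fell by 1.06 (SE 0.23, limma adjusted p = 0.0243), CCNB2 by 1.04 (SE 0.16, limma adjusted p = 0.0069) and the centromere histone CENPA by 1.03 (SE 0.23, limma adjusted p = 0.0253). NUF2 (-0.90), BIRC5 (-0.85), CDC20 (-0.78), CENPF (-0.78) and CDK1 (-0.72) also fell, and CCNB1 was the ninth. The count was 0 without wild-type replicate 1 (15 at an unadjusted p under 0.05), 2 without wild-type replicate 3, and 1 when knockout replicate 2 or 3 was left out. As for the other lists, the number of all genes called also changed in such fits.

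**Figure D5:**
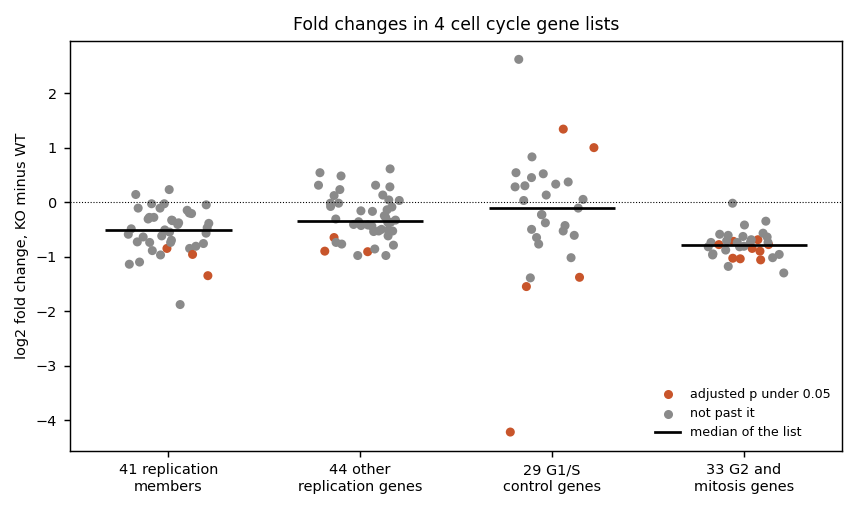
Log2 fold change, knockout minus wild type (y axis), of the tested genes of 4 lists (x axis), with each point a gene, orange where the limma adjusted p was under 0.05, and a line at the median of the list. The medians are -0.51, -0.35, -0.11 and -0.78, and the lowest point is CDKN1A at -4.22.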

How the data were processed

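RNA-seq libraries of 6 cardiomyocyte cultures, 3 per genotype, were made with Clontech Ultra Low and NexteraXT kits, per the labels' protocols. The authors deposited 1 table of normalized counts, a signal with 1 value per gene symbol and library. Per the submitters' processing notes, bcl2fastq 2.19, kallisto 0.44.0, DESeq2 1.28.1 and the build GRCh38 were used; the annotation and the use of strand are not given in the sources used here. Columns were matched by the names the labels give, and 0 were left unused. Of the values, 100% were whole multiples (within 0.01) of 1 factor per library, which gave back whole reads. Chi-square per degree of freedom between replicates was 19.9 to 382, so each library counted as 1 replicate; PCR copies cannot be told apart.

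Tests used limma 3.58.1 in R 4.3.3 on log2(value + 1), which understates changes of low genes, over 15536 genes with a mean of at least 10, with a trend. The Benjamini-Hochberg adjustment covered all genes tested, the threshold was 0.05, and adjusted p and SE are limma's unless another tool is named. The recovered reads went into edgeR 4.0.16 and DESeq2 1.42.0. Other alternatives were the pseudocount, filter, scaling, replicate block, eBayes without trend or robust, and each library left out. The members and lists were chosen with earlier results of these data known. All 41 members are named, and from the other lists genes with an adjusted p under 0.05, at most 8 a list by size of change, except 1 gene that is not reported here; CCNB1, RPA2, POLD4, NKX2-5, MYL7, MYH6, TDGF1, CDH5, FOXA2 and ENOSF1 were named after their values were seen. Lengths and positions are from GENCODE 29, and 15168 tested genes (97.6%) had a length. In simulated data with 15536 genes, limma recovered 63 of 100 genes changed by 2 on the log2 scale and 3 of 100 changed by 1, with 3 false calls. Figures were drawn with matplotlib 3.10.9.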

Additional observations from a re-analysis of the deposited data

How the results depend on the processing

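TYMS kept its direction and an adjusted p under 0.05 in all 20 alternatives; PCNA and GINS2 did so in 13 of 20. The count of called replication genes, 3, was 5 with equal totals, 1 without a trend, 7 with DESeq2, 1 to 3 when 1 library was left out, 12 without both wild-type replicate 2 and knockout replicate 1, and 5 with the length trend removed. The share of all genes called lower was 9.37% with equal totals, 5.89% without a trend and 10.7% with DESeq2. It was 14.0% without both libraries and 8.43% with the length trend removed. The number of all genes called, 1982, was 3210 with DESeq2, 796 to 2181 with 1 library left out and 4483 without both libraries. The 44 other replication genes, with 3 calls, gave 1 with no filter, 5 with equal totals, 1 without a trend, 5 with DESeq2, 0 to 2 with 1 library left out and 14 without both. The G1/S control genes, with 5, gave 8 with quantile normalization, 9 with DESeq2, 1 to 6 with 1 library left out, 10 without both and 9 with the length trend removed. The G2 and mitosis genes, with 9, gave 4 without a trend, 17 with DESeq2, 0 to 10 with 1 library left out, 29 without both and 14 with the length trend removed. Scaling to equal totals moved the median of all genes to -0.27 and that of the 41 to -0.79, 0.51 below it, and the share of calls that were higher from 46.8% to 27.4%. The median of the 41 ran from -0.63 to -0.39 with 1 library left out, and that of STK25 from -1.24 to -1.05.

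Some directions turned, and none of these genes had passed the threshold. With equal totals ORC1 was -0.049 and RRM2 -0.15. With quantile normalization GINS3 was 0.094 and GINS4 0.10. Without both libraries ORC6 was 0.070, CDC6 0.088, GINS3 0.018, GINS4 0.15 and POLA2 0.012. With the length trend removed ORC6 was 0.022, GINS3 0.090 and GINS4 0.049. Leaving out 1 library changed the sign in 16 of 252 values: the log2 fold change ran from -0.13 to 0.11 for ORC6, -0.29 to 0.20 for CDC6, -0.63 to 0.14 for GINS1, -0.057 to 0.014 for GINS3, -0.17 to 0.13 for GINS4, -0.38 to 0.28 for POLA2, -0.64 to 0.079 for POLD1, -0.54 to 0.075 for POLE, -0.55 to 0.10 for RFC5, -0.40 to 0.017 for DUT and -1.26 to 0.063 for E2F2. The cause was not tested.

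Whether replicate numbers pair the samples is not known. Same-numbered libraries' deviations from their genotype means correlated at -0.235, -0.4 and 0.169, and differently numbered ones at -0.35 to 0.448. Deviations from a mean of 3 are tied to each other, so these values cannot decide it. With the replicate number as a block, 798 genes were called in all, 1 replication gene (TYMS), 0 of the other replication genes, 1 G1/S control gene and 0 G2 and mitosis genes, with 6, 6, 7 and 15 of the 4 lists at an unadjusted p under 0.05, and STK25 had -1.12 with an adjusted p of 0.0684. With 3 libraries a genotype, a gene that did not pass is not shown to be unchanged. Changes near 2-fold were rarely recovered in simulated data, but only 100 genes were changed there by each amount. In these data 1982 genes were called, which makes the adjusted threshold less strict, and PCNA passed with limma at -0.85. The simulated shares therefore do not carry over to these data. DESeq2 gave more calls in each list than limma. It made 50 false calls in the same simulated data, against 3 by limma, and these numbers do not carry over either.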
